A study of Mus musculus with 2 samples.

Results

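The genes described here are 9 muscle members of the BTB-kelch family, Klhl31, Klhl41, Klhl40, Kbtbd12, Klhl33, Klhl30, Klhl38, Klhl34 and Kbtbd13, together with the cullin gene Cul3. They were chosen by symbol, with earlier results of these data known, and all 10 were found among 55536 annotated genes. All 10 had enough counts to be tested. The source was gastrocnemius, a calf muscle, whose total RNA was sequenced in 1 library for each of 2 male mice, 8 to 10 months old. Both animals were untreated as far as the labels say, and both were B6CASTF1/J, the first-generation hybrid of the strains C57BL/6J and CAST/EiJ. The labels form 1 group, so there is no condition to compare, and the 2 animals are called replicate 1 and replicate 2. Both carry 1 shared donor identifier but different animal numbers, and whether anything besides the animal differed between the libraries is not given.

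Cullin-RING ligases attach ubiquitin to chosen proteins. In the CUL3 form, CUL3 is the scaffold: its C-terminal end holds the RING protein RBX1, and its N-terminal end binds the BTB domain of an adaptor whose kelch propeller recruits the substrate. In skeletal muscle several BTB-kelch proteins are concentrated at the sarcomere. Inherited variants of KLHL40, KLHL41 or KBTBD13 in people cause nemaline myopathy, a disease of thin filaments with rod-like inclusions.

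The labelled tissue was checked against marker genes. All 10 of 10 muscle fibre markers had a mean of 1080 TPM or more (TPM is the share of transcripts in a library after correction for transcript length). Of 9 cardiac markers, 5 were below 1 TPM in both animals and Nkx2-5 was listed at 0, while Myh6 had a mean of 35.17 TPM, Actc1 16.48 TPM, Tnnt2 2.22 TPM and Tnni3 1.12 TPM. Of 6 macrophage and myeloid markers 4 were below 1 TPM in both. The depth was 36792619 estimated gene counts for replicate 1 and 37752252 for replicate 2. The libraries differed in composition: 10 of 10 slow fibre markers passed an exact binomial test on their counts as higher in replicate 1, with summed levels of 1912 and 1276 TPM. Higher in replicate 2 by that test were 10 of 10 fibre markers, 5 of 5 adipocyte markers and 8 of 10 endothelial and mural markers, and the other 2, Pecam1 and Emcn, had log2 ratios of 0.12 and 0.34 that did not pass. Of 6 satellite cell and regeneration markers, Myog passed as higher in replicate 1 (log2 ratio -1.95) and Myh8 as higher in replicate 2 (0.22). The other 4 did not pass. Over all genes tested, 21.6% passed. The muscle fibre marker ratios were small, from 0.04 to 0.2, and spike-in scaling moved the median of all genes by -0.15. An assumed biological variation of 0.1 (edgeR's exact test) left 0 of 10 muscle fibre and 2 of 10 slow fibre markers called. It left 1 of 5 adipocyte and 2 of 10 endothelial and mural markers, against 2.05% of all genes. In bulk muscle, fewer cells of a type and less RNA per cell cannot be told apart.

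The 10 genes spanned a 55.5-fold range of level, from Klhl31 down to Kbtbd13. Klhl31 and Klhl41 stood at the top, Cul3 came next, and Klhl34 and Kbtbd13 were lowest. The median level of the 10 genes was 36.2 TPM, and 8 of 10 lay above 8.12 TPM, the median of the 9815 nuclear protein-coding genes that reached 1 TPM in both animals. In 8 of the 9 neighbouring pairs in this order the ranges of the 2 animals did not overlap. The exception was Klhl34 and Kbtbd13, which changed places between the animals. The closest pair without overlap was Klhl33 and Klhl30, with 30.48 TPM as the lower value of Klhl33 and 30.04 TPM as the higher value of Klhl30. With 2 animals per gene, such a gap is a description and not a test.

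**Figure D1:**
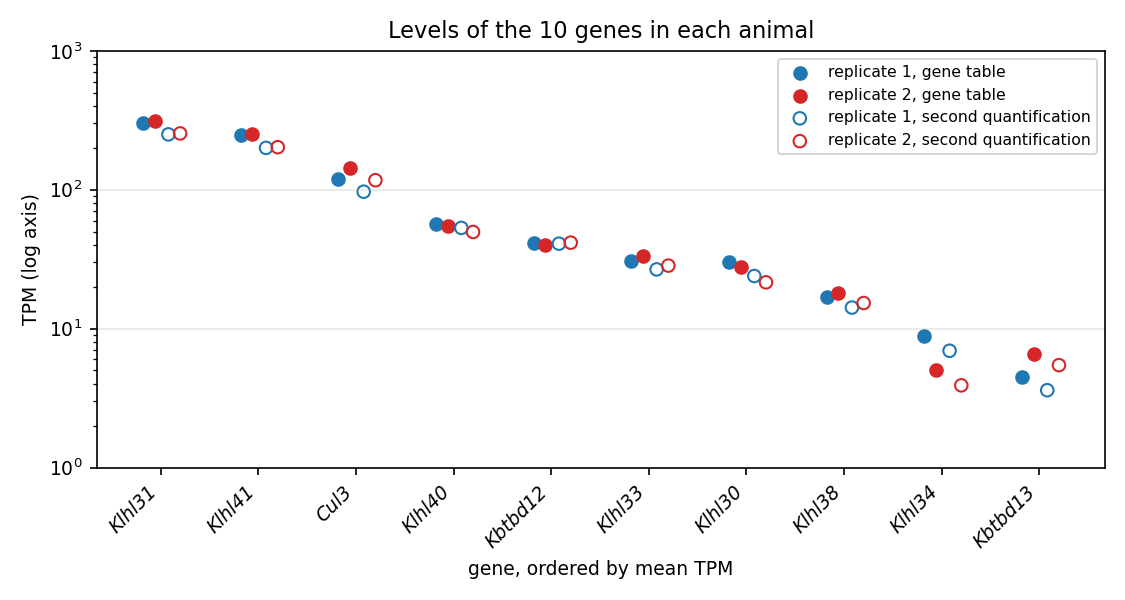
Level of each gene in TPM on a log axis, ordered by mean; filled points are the gene table and open points the second quantification, with replicate 1 in blue and replicate 2 in red. Klhl31 and Klhl41 lie above 200 TPM in the gene table, and Klhl34 and Kbtbd13 are the only neighbours whose order differs between the animals.

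Cul3 (ENSMUSG00000004364.14, chr1:80264923-80340480 in mm10, minus strand) is the scaffold on which the adaptors act. Its level was 119.31 TPM in replicate 1 and 143.22 TPM in replicate 2, or 131.3 ± 16.9 TPM (SD, n = 2). Replicate 2 was the higher animal by TPM. The counts behind these levels were 8699 and 9824, and after scaling to library size they had a log2 ratio (replicate 2 over replicate 1) of 0.03, with a 95% counting interval from -0.02 to 0.07. That ratio did not pass the exact binomial test, with an adjusted p of 0.459 over all genes tested, whereas the log2 ratio of TPM was 0.26. The effective length used for TPM was 2895 bases in replicate 1 and 2404 bases in replicate 2, where more of the TPM was assigned to short transcripts.

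The full-length Cul3 messages, Cul3-201 and Cul3-202, together held 98.97 TPM in replicate 1 and 96 TPM in replicate 2. The short transcripts Cul3-203 to Cul3-206 held 20.34 and 47.22 TPM, on 248 and 639 estimated counts. The excess of replicate 2 in TPM therefore lay in the short transcripts and not in the full-length messages. Cul3-204, annotated as a retained intron, had 3.38 TPM in replicate 1 and 16.07 TPM in replicate 2. The second quantification gave the short transcripts 10.21 and 32.63 TPM, again higher in replicate 2.

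Cul3-202 was the leading transcript in both animals, at 44.58% of the gene's TPM in replicate 1 and 37.12% in replicate 2, or 40.8% ± 5.28 (SD, n = 2). Cul3-201, the longer message, held 38.37% and 29.91%. The second quantification gave Cul3-202 a mean of 53.1%. Cul3-202 lacks exon 2, its annotated start lies 169 bases further in, and its last exon is 465 bases long against 2365 bases. Exon 2 (chr1:80322859-80323056) has 198 bases, or 66 codons with none left over, and encodes residues 23 to 88, in the N-terminal part of the protein, the end that binds adaptors. Of the full-length TPM, the form without exon 2 held 53.7% and 55.4%, and 64.6% and 67.1% in the second quantification. Since the messages also differ in their first and last exons, these shares do not come from the exon 2 junction alone. The exon is shown in capitals with 15 coding bases on either side in lower case, followed by the junction that remains without it, because these are the letters by which the 2 messages differ inside the coding sequence.
Cul3 exon 2 in Cul3-201: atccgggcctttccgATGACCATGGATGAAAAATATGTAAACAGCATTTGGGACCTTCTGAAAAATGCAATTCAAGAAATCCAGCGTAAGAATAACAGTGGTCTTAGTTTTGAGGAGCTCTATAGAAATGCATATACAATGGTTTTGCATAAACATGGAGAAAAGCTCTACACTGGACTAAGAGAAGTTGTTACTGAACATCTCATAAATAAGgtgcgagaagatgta
Cul3-202 junction: atccgggcctttccggtgcgagaagatgta

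Klhl41 and Klhl40 are paired by their reported role: both are muscle adaptors linked to nebulin, the giant thin-filament protein, and KLHL40 also stabilises the thin-filament protein LMOD3. Klhl41 (ENSMUSG00000075307.3, chr2:69670120-69684230, plus strand) had 245.98 TPM in replicate 1 and 253.26 TPM in replicate 2, or 249.6 ± 5.15 TPM (SD, n = 2). The animals were close, and the level ranked 193 of 22015 nuclear protein-coding genes. Counts were 15046 and 17552, with a log2 ratio of 0.07 (interval 0.04 to 0.1) that passed the exact binomial test at an adjusted p of 9.64e-05. Of the 31-base words of its annotated transcript, 94.56% occurred in no other gene on the same strand.

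Klhl40 (ENSMUSG00000074001.3, chr9:121777607-121783818, plus strand) had 57.01 and 54.74 TPM, or 55.88 ± 1.61 TPM (SD, n = 2). Klhl41 was above it by 4.31-fold in replicate 1 and 4.63-fold in replicate 2. Its counts, 3259 and 3539, gave a log2 ratio of -0.03 that did not pass the test (exact binomial test, adjusted p = 0.601). Hhatl, a gene also expressed in striated muscle, ends 198 bases away on the opposite strand, at 60.7 TPM. Zfp651 lies 5865 bases away on the other side at 65.1 TPM, so Klhl40 sits between genes of like level.

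The 2 quantifications disagreed on one point of Klhl40. In the first transcript table Klhl40-201, the coding message, held 100% and 99.6% of the gene's TPM, or 99.8% ± 0.283 (SD, n = 2). The second gave it a mean of 81.9% and gave Klhl40-202, annotated as a retained intron, 18.1%. Klhl40-202 is a single exon of 1368 bases, of which 90.4% is shared with exon 1 of Klhl40-201. The rest is 84 bases before the start of Klhl40-201 and 47 bases of intron 1. The letters that separate the pair at that end are shown, with the shared end of exon 1 in lower case and the bases that follow it in capitals.
Klhl40-202, into intron 1: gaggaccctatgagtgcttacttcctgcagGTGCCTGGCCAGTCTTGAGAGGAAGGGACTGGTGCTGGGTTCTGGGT
Klhl40-201, into exon 2: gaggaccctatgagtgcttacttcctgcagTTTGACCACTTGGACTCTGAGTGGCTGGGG

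Kbtbd13, the third of the genes linked to nemaline myopathy, encodes an adaptor that has also been reported to bind actin. Kbtbd13 (ENSMUSG00000054978.3, chr9:65388684-65391652, minus strand, a single exon) had the lowest mean of the 10 genes, with 4.47 TPM in replicate 1 and 6.61 TPM in replicate 2, or 5.54 ± 1.51 TPM (SD, n = 2). Replicate 2 was higher. Counts of 323 and 541 gave a log2 ratio of 0.59 (interval 0.39 to 0.8), or 1.51-fold, which passed the exact binomial test at an adjusted p of 7.51e-08. With an assumed biological variation of 0.1 between animals (edgeR's exact test) the adjusted p was 0.23, so the difference exceeded counting noise but not that assumed spread. The direction was that of the muscle fibre, the adipocyte and the endothelial and mural markers, with median log2 ratios of 0.13, 0.55 and 0.33. The muscle fibre median was smaller in size than the shift of -0.15 that spike-in scaling gave the median of all genes. The part of these markers in the difference was not tested. Even so, 72.3% of nuclear protein-coding genes lay below its level.

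Klhl31 is a striated muscle adaptor whose loss in mice causes a myopathy with accumulation of filamin C. Klhl31 (ENSMUSG00000044938.8, chr9:77636500-77660127, plus strand) was the most abundant of the genes, at 303.54 TPM in replicate 1 and 311.23 TPM in replicate 2, or 307.4 ± 5.44 TPM (SD, n = 2). The animals again lay close together, and its level ranked 148 of 22015 nuclear protein-coding genes. Klhl31 exceeded Klhl41 by 1.23-fold in both animals. Its message is long, 6494 bases of which 1902 are coding, and drew 48876 and 56780 counts. At that depth a log2 ratio of 0.07 (interval 0.05 to 0.08) passed the exact binomial test with an adjusted p of 4.51e-12. Per length, Klhl31 and Klhl41 together held 74.4% and 75.3% of the summed TPM of the 9 adaptors.

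The remaining adaptors are less studied. Kbtbd12 (ENSMUSG00000033182.12, chr6:88545114-88637950, minus strand) had 41.03 and 39.92 TPM, or 40.48 ± 0.785 TPM (SD, n = 2). The animals were nearly level, with 4085 and 4536 counts and a log2 ratio of 0.00 (exact binomial test, adjusted p = 1). Its main message, Kbtbd12-202, held 79.1% and 78.83% of TPM, and 75.2% in the second quantification. The quantifications placed the rest differently: Kbtbd12-203, a retained intron form, had 18.1% in the first and 1.06% in the second, while Kbtbd12-204, a short form with its own upstream start, had 0% in the first and 20.95% in the second.

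Klhl33 (ENSMUSG00000090799.2, chr14:50888582-50897507, minus strand) had 30.48 TPM in replicate 1 and 33.32 TPM in replicate 2, or 31.9 ± 2.01 TPM (SD, n = 2). Counts of 3322 and 4010 were higher in replicate 2, with a log2 ratio of 0.12 (interval 0.05 to 0.19) and an adjusted p of 0.00296 in the exact binomial test. Klhl33-204, the longest of 4 transcripts with 793 codons, held 72.4% and 69.66% of TPM, or 71.0% ± 1.94 (SD, n = 2). The second quantification gave it 63.0% and moved share to Klhl33-201, from 13.65% to 26.19%. Both quantifications thus put Klhl33-204 first in both animals.

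Klhl30 (ENSMUSG00000026308.8, chr1:91351016-91362416, plus strand) had 30.04 TPM in replicate 1 and 27.58 TPM in replicate 2, or 28.81 ± 1.74 TPM (SD, n = 2). Its counts, 2261 and 2352, gave a log2 ratio of -0.09 that did not pass the exact binomial test (adjusted p = 0.103). The gene 4014 bases downstream on the same strand, Erfe, the erythroferrone gene, was at 0.51 TPM. Klhl38 (ENSMUSG00000022357.2, chr15:58314573-58324169, minus strand) had 16.94 and 18.15 TPM, or 17.55 ± 0.856 TPM (SD, n = 2). With 901 and 1094 counts its log2 ratio of 0.13 did not pass the exact binomial test (adjusted p = 0.149). Its nearest protein-coding neighbour on one side, 99641 bases away, was Fbxo32 (atrogin-1, a muscle adaptor of another cullin ligase) at 80.0 TPM. An antisense gene, Gm15943, overlaps Klhl38 exons, and its own level was 0.015 TPM.

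Klhl34 (ENSMUSG00000047485.6, chrX:157818435-157820369, plus strand) differed most between the animals. It had 8.87 TPM in replicate 1 and 5.02 TPM in replicate 2, or 6.945 ± 2.72 TPM (SD, n = 2), and replicate 1 was the higher animal. Counts of 410 and 263 gave a log2 ratio of -0.79 (interval -1.02 to -0.56), or 1.73-fold. The exact binomial test gave an adjusted p of 6.64e-11, and Klhl34 was the only one of the 10 genes that also passed with the assumed biological variation of 0.1 (edgeR's exact test, adjusted p = 0.042). The direction was that of the slow fibre markers, whose median log2 ratio was -0.58. The satellite cell and regeneration markers, called in both directions, had a median of -0.22. The part of fibre type or of these cells in the difference was not tested. The annotated Klhl34 message is a single exon of 1935 bases of which 1932 are coding, so reads from untranslated ends are not counted. It lies 1067 bases from the far less abundant Cnksr2 (0.115 TPM), on the opposite strand, and 65844 bases from Smpx, a muscle cytoskeleton gene at 166 TPM.

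**Figure D2:**
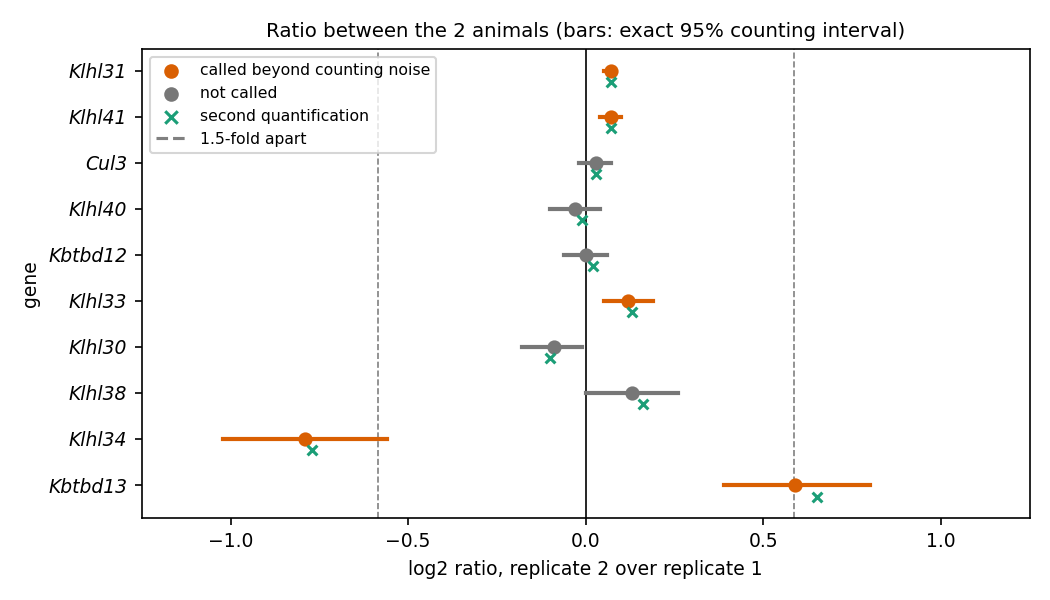
Log2 ratio of replicate 2 over replicate 1 for each gene, with exact 95% counting intervals; orange points were called, grey points were not, crosses are the second quantification and dashed lines mark 1.5-fold. Klhl34 at -0.79 and Kbtbd13 at 0.59 stand apart in opposite directions, and the other 8 genes lie between -0.09 and 0.13.

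Between the libraries, 5 of the 10 genes were called, meaning that they passed the exact binomial test at an adjusted p of 0.05: Klhl31, Klhl41, Klhl33 and Kbtbd13 were higher in replicate 2 and Klhl34 was higher in replicate 1. Of all 14095 genes tested 21.6% were called, 10.7% as higher in replicate 2 and 10.8% as higher in replicate 1. Among the 6248 genes within the same range of mean counts the share called was 30.6%. The test compares 2 libraries and covers counting noise only, so it calls small ratios in deeply counted genes. The size of the differences was modest: the median absolute log2 ratio was 0.08 over the 10 genes, 0.16 over all genes tested and 0.12 over genes whose mean count was at least 100. None of the 10 was 2-fold apart, against 0.925% of the 9516 genes at that count level, and Klhl34 and Kbtbd13 were at least 1.5-fold apart, against 3.39%. With the assumed biological variation 1 of the 10 was called, against 2.05% of all genes. Scaling decided the direction of small ratios. Scaled to spike-in totals, Klhl31 and Klhl41 had log2 ratios of -0.08 and Klhl33 one of -0.03, and of the 10 genes 1 was called as higher in replicate 2 and 7 as higher in replicate 1. Scaled to total counts, 7 were called as higher in replicate 2 and 1 as higher in replicate 1. Small ratios that did not pass also turned: Klhl38 had -0.02 with spike-ins, and Klhl40 and Klhl30 had 0.08 and 0.02 with total counts. Spike-in scaling moved the median of all genes by -0.15 and total counts moved it by 0.11.

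The 9 adaptors were set against other listed genes of their family and against Cul3. Their summed level was 738.4 TPM in replicate 1 and 749.8 TPM in replicate 2, or 744.1 ± 8.06 TPM (SD, n = 2). This was 6.19 and 5.24 times the level of Cul3. The ratio was lower in replicate 2, the animal with more TPM on the short Cul3 transcripts. Against the full-length Cul3 messages alone, at 98.97 and 96.0 TPM, it was not lower in replicate 2. The other 40 BTB-kelch genes matched in the tables summed to 347.1 and 345.8 TPM. The 9 adaptors thus held 68.0% and 68.4% of the TPM summed over both sets, and 68.9% and 69.0% in the second quantification. The 9 were chosen as the muscle members of the family. The medians of the other genes were 2.14 and 1.94 TPM.

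Among the other BTB-kelch genes, 26 of 40 reached 1 TPM in both animals and 3 were listed at 0 in both. The most abundant was Ivns1abp, which encodes an influenza NS1-binding protein, at 69.8 and 76.32 TPM. Klhl24, an adaptor that targets keratins in skin, had 65.68 and 65.96 TPM, and Klhl21, an adaptor active in cell division, 51.54 and 52.23 TPM. Ivns1abp, Klhl24 and Klhl21 therefore lay between Cul3 and Kbtbd12 in level, and Klhl9 followed at 25.0 TPM. Of 34 tested, 1 was called as higher in replicate 2 and 5 as higher in replicate 1, against 21.6% called of all genes tested. The median log2 ratio of the 34 was -0.05. Among those with a mean of at least 100 counts the largest called ratios were -0.56 for Kbtbd3 and -0.56 for Kbtbd7. Below that limit Enc1, named after its values were seen, had 126 and 56 counts and a log2 ratio of -1.31, and it was the 1 gene of the list that was also called with the assumed biological variation (edgeR's exact test, adjusted p = 0.0023).

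**Figure D3:**
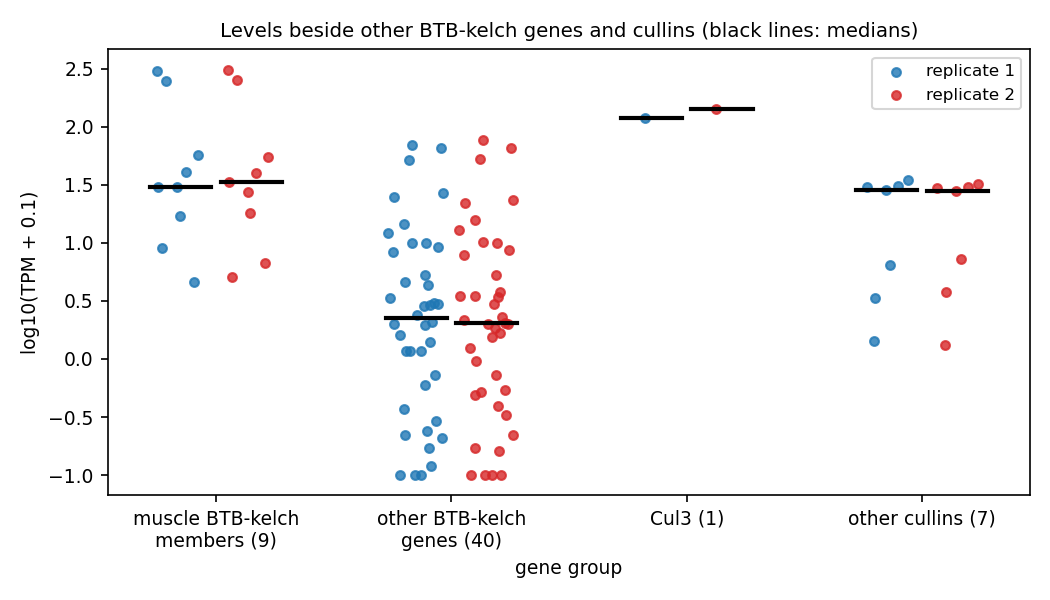
Level as log10(TPM + 0.1) in each animal for the 9 muscle adaptors, the other 40 BTB-kelch genes, Cul3 and the other 7 cullins; each point is 1 gene and black lines are medians. The 2 highest adaptors, Klhl31 and Klhl41, lie above every other BTB-kelch gene and every cullin plotted.

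Cul3 was also the leading cullin, with 46.9% of summed cullin TPM in replicate 1 and 52.0% in replicate 2. These shares include the short Cul3 transcripts, at 20.34 and 47.22 TPM. The full-length Cul3 messages, at 98.97 and 96.0 TPM, were not higher in replicate 2 and still lay above every other cullin. The next were Cul5 at 33.61 TPM, Cul4a at 30.59 TPM and Cul2 at 29.93 TPM, scaffolds of other ligases, and Rnf7, the RING partner of Cul5, was at 29.63 TPM. None of the 8 genes of this list was called by the exact binomial test or with the assumed biological variation. At an unadjusted p below 0.05, 2 of the 8 passed the exact binomial test. Scaled to total counts 4 of them were called, and scaled to spike-ins 6 were.

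The machinery that acts on CUL3 was expressed throughout. NEDD8, the ubiquitin-like protein that activates cullins, is attached through NAE1 and UBE2M and removed by the COP9 signalosome, while CAND1 binds cullins that lack it. All 25 of 25 genes of this list reached 1 TPM in both animals. Nedd8 had 83.67 and 70.84 TPM, the signalosome genes Cops9 and Cops5 had means of 77.02 and 55.94 TPM, and Ube2m had 68.36 TPM. Of the 25, 22 were not called, 1 was called as higher in replicate 2 and 2 as higher in replicate 1, and the median log2 ratio was 0.01. The largest called ratios were -0.46 for Cand1 (7.48 and 5.07 TPM) and -0.26 for Nae1 (12.07 and 9.55 TPM). The share called over all genes tested was 21.6%. With the assumed biological variation 0 of the 25 were called.

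Adaptors of CUL3 without kelch repeats were led by Spop, a MATH-BTB adaptor, at 88.22 and 79.36 TPM. Kctd9 had 36.11 TPM, Tnfaip1 21.45 TPM and Rhobtb1 16.71 TPM. Spop thus exceeded 7 of the 9 muscle adaptors, all but Klhl31 and Klhl41. Of 18 genes, 1 was called as higher in replicate 2 (Abtb1, log2 ratio 0.35) and 3 as higher in replicate 1, among them Kctd5 at -0.44. The share called over all genes tested was 21.6%. With the assumed biological variation 0 of the 18 were called, against 2.05% of all genes.

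The list of nemaline myopathy genes and reported partners of these adaptors had medians of 192 and 149 TPM. Acta1, skeletal actin, had 17560 TPM and Neb, nebulin, 3316 ± 250 TPM (SD, n = 2). Of 13 such genes, 5 were called as higher in replicate 2, 7 as higher in replicate 1 and 1 was not called, with a median log2 ratio of -0.05. Of all genes tested 21.6% were called. The test calls small ratios in deeply counted genes such as Neb, with 732643 and 728022 counts. With the assumed biological variation 1 of the 13 was called. Neb had a log2 ratio of -0.16, opposite in sign to that of Klhl41 at 0.07. Scaled to spike-in totals, Klhl41 was at -0.08, so the contrast of sign depended on scaling. Neither gene was called with the assumed biological variation. The slow fibre genes Tnnt1 at -0.68 and Tpm3 at -0.54 had the largest ratios, and both also belong to the slow fibre markers.

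**Figure D4:**
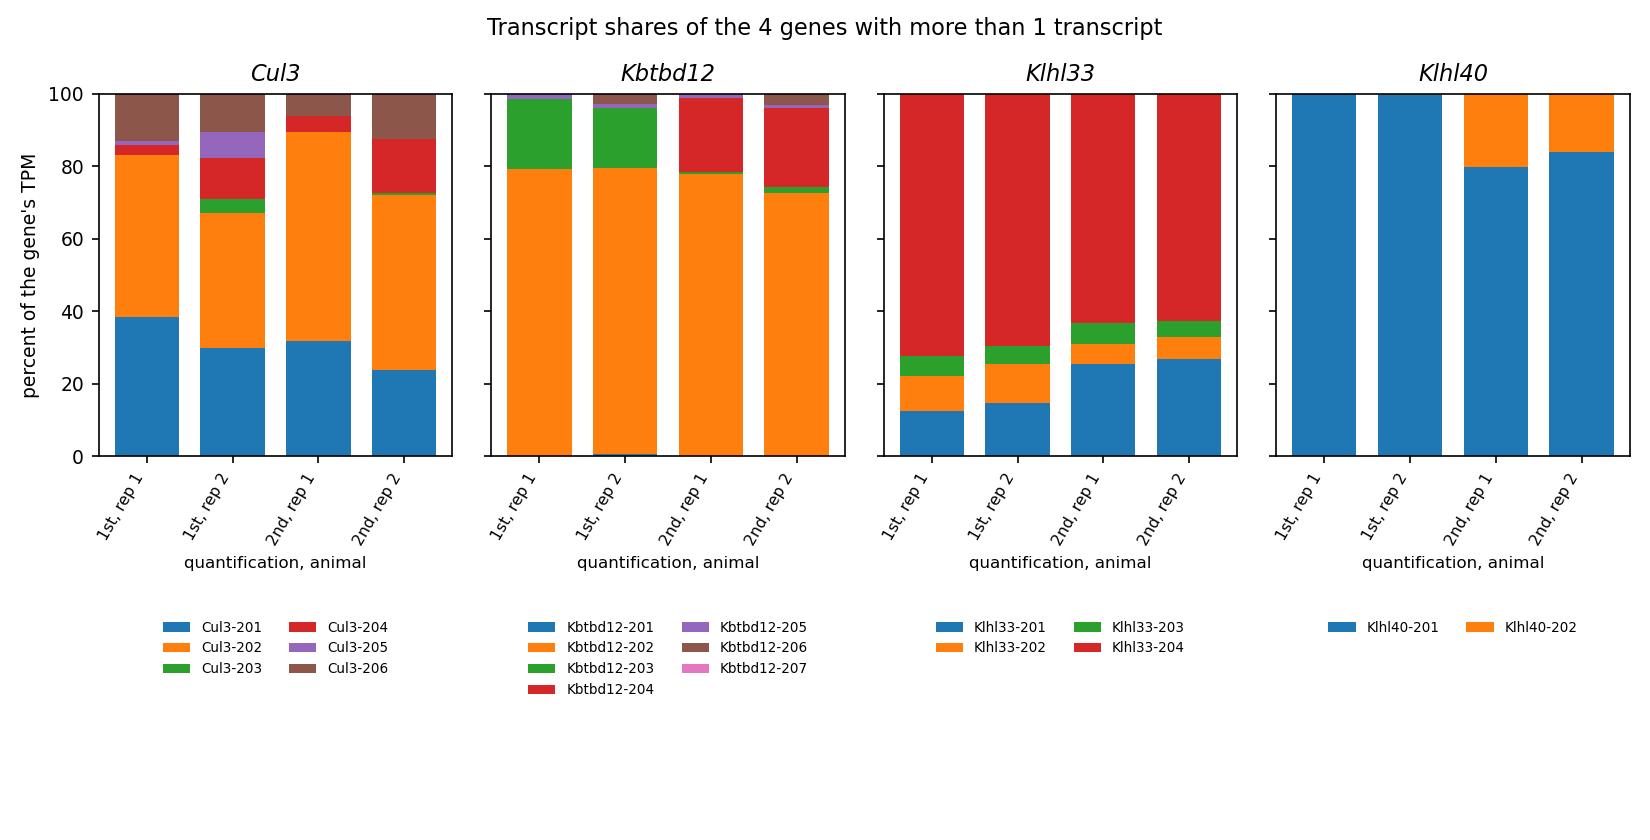
Percent of each gene's TPM held by each transcript of Cul3, Kbtbd12, Klhl33 and Klhl40, in replicate 1 and replicate 2, by the first transcript table (1st) and the second quantification (2nd). The leading transcript is the same in all bars of a gene, and Kbtbd12, Klhl33 and Klhl40 differ more between quantifications than between animals.

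The other 6 genes have a single annotated transcript, so their levels do not depend on how reads were split among forms. In Cul3, Kbtbd12, Klhl33 and Klhl40 the leading transcript was the same in both animals and in both quantifications. Levels by the second quantification kept the order of the 10 genes. They were 0.78 to 0.919 of the gene-table level for 9 genes and 1.02 for Kbtbd12.

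RefSeq promoter windows (GRCm38.p6, the 250 bases before the RefSeq start) were given for 8 of the 10 genes, in 9 windows, with none for Klhl30 and Klhl38. The MEF2 motif, bound by the MEF2 family of muscle transcription factors, was searched on both strands and occurred in 3 of 9 windows, those of Klhl41, Kbtbd12 and one of Klhl33. It occurred in 0.508% of all 32851 windows of the same length. The E-box CANNTG, bound by MyoD and related factors among others, occurred in 6 of 9 windows against 66.2% of all windows. TATAAA occurred in 2 of 9 against 12.4% and the MCAT element CATTCC in 2 of 9 against 12.6%. The Klhl31 window held none of the 4 motifs, but the GENCODE start of Klhl31 lies 232 bases before the RefSeq start, so nearly all of that window is transcribed sequence in the annotation used for the levels. The windows with a MEF2 match are shown because they carry the motif that was rare elsewhere. Bases from the first GENCODE transcript start inside a window onward were left out. The Kbtbd12 window still lies within the span of Kbtbd12-204, which GENCODE starts further upstream, at 88637950. Capitals mark motif matches: the 10-base run is the MEF2 match, beginning 63 bases before the RefSeq start in Klhl41, 91 in Kbtbd12 and 50 in Klhl33, and the 6-base runs are E-boxes. In Kbtbd12 the MEF2 match overlaps a TATAAA match on the other strand. A match is a description of these letters, and binding was not measured. The letters are those of the reference genome, and CAST/EiJ variants of these hybrid mice were not examined.
Klhl41 promoter, chr2:69669870-69670119, plus strand: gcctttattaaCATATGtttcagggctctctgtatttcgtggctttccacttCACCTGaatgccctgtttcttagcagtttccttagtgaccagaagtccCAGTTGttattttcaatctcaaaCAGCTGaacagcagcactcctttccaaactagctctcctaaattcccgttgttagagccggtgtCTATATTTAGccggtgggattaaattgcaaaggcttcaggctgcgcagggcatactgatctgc
Kbtbd12 promoter, chr6:88627449-88627679, minus strand: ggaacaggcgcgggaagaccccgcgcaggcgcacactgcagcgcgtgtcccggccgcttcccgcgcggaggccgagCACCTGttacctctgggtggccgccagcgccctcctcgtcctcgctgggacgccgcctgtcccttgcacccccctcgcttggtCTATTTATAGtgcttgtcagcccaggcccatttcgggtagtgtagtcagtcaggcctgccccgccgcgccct
Klhl33 promoter, chr14:50897508-50897733, minus strand: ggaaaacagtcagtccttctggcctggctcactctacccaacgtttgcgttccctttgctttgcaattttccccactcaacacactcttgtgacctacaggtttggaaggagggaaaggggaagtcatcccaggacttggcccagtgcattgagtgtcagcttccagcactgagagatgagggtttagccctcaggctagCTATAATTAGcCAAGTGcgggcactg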

How the data were processed

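For each library the authors deposited 1 gene table and 2 transcript tables, the latter made in different ways. All used mm10 with GENCODE M21, per the deposited README. Column names are those that RSEM writes, and those that kallisto writes for the transcript table called the second quantification, per the file headers. The sources used here give no aligner, version or strand setting, so antisense and overlapping genes may share reads. The deposited expected counts are estimated reads, not normalized. The deposited TPM covers all entries, spike-ins included. The deposited percent is each transcript's share of its gene's TPM.

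Expected counts were rounded for tests. Library sizes used trimmed means of M values (edgeR 4.0.16, R 4.3.3), and log2 ratios a prior of 1 count. Each gene with at least 10 counts on average entered an exact conditional binomial test, two-sided, with Benjamini-Hochberg adjustment over all such genes at 0.05. It compares 2 libraries and gives counting error only, since 1 group of 2 leaves no spread to estimate. A chi-square of 85.4 per degree of freedom separated the libraries, more than sampling noise. Ratios of TPM used an added 0.1. The alternatives tried were scaling by DESeq2 1.42.0 size factors, total counts or spike-ins, other count minimums, a different prior, a biological variation assumed to be 0.1, the second quantification, another denominator and each animal left out.

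All 10 genes are named. Of each pathway list, the 4 with the highest TPM and up to 2 called genes with the largest ratio at a mean of 100 or more counts are named, with annotated neighbours. Enc1, Pecam1, Emcn, Myog, Myh8 and the cardiac markers were named after their values were seen. The genes and lists were chosen with earlier results of these data known. Of 41 other BTB-kelch symbols 40 were matched. Proteins were not analysed here.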

Additional observations from a re-analysis of the deposited data

How the results depend on the processing

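No paired analysis was possible because the labels form 1 group. The count of the 10 genes called, 5, became 8 with total counts, 8 with spike-ins and 1 with the assumed biological variation, and the count over all genes became 5013 with spike-ins and 289 with the assumed variation. Called genes of the lists became, with total counts, spike-ins and the assumed variation, 9, 16 and 0 for the ligase core, and 11, 14 and 1 for other BTB-kelch genes. Other cullins became 4 with total counts and 6 with spike-ins. Adaptors without kelch repeats became 9 with spike-ins and 0 with the assumed variation, and nemaline genes 1 with the latter. Scaling to spike-ins reversed the log2 ratios of Klhl31 (-0.08), Klhl41 (-0.08), Cul3 (-0.12), Kbtbd12 (-0.15) and Klhl33 (-0.03) and their median over the 10 genes (-0.1), which total counts moved to 0.16. Ratios not called in either fit that changed sign were Klhl38 with spike-ins (-0.02) and Klhl40 (0.08) and Klhl30 (0.02) with total counts. The cause was not tested. The TPM of full-length Cul3 transcripts alone, chosen after seeing the data, gave -0.04 and a level of 97.48 TPM.

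The median level was 34.4 TPM by the second quantification and 83.3 TPM with nuclear protein-coding genes alone as the denominator, and 35.8 to 36.6 TPM with either animal left out. Without replicate 1, Kbtbd13 (6.61 TPM) was above Klhl34 (5.02 TPM). By the second quantification Cul3-202 held 53.1%, Kbtbd12-202 75.2%, Klhl33-204 63.0% and Klhl40-201 81.9%. With an animal left out they ranged from 37.1 to 44.6%, 78.8 to 79.1%, 69.7 to 72.4% and 99.6 to 100%. DESeq2 size factors, other count minimums and another prior changed none of these calls or counts beyond 1.5 times.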
